A study of Mus musculus with 24 samples.

Results

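The 2′-5′-oligoadenylate synthetases (OAS) were followed across 4 derivatives of one mouse mammary tumour cell line. The 8 genes Oas1a, Oas1b, Oas1c, Oas1g, Oas2, Oas3, Oasl1 and Oasl2 were chosen by family name and by being listed in the batch 2 count table, which held 13915 genes against 55471 in batch 1. A gene was listed in batch 2 only if some library held at least 10 counts of it, so the listing used the counts themselves. The family was also chosen with earlier results of these data known. Counts of members called are therefore not those of a set picked without knowledge of the group differences. The member nearest that limit was Oas1c, with at most 46 counts in a batch 2 library. All 8 genes passed the filter on low counts in both batches.

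The cells were EO771, a carcinoma line from a spontaneous mammary tumour of a C57BL/6 mouse. All derivatives had been transduced with a retrovirus, selected with G418 and sorted without clonal selection. X2 cells carried the vector alone, and CCR7 cells carried the chemokine receptor CCR7 and were sorted as negative for the surface protein podoplanin (PDPN). CCR7-PDPN cells were CCR7-transduced cells sorted as PDPN-positive, and X2-PDPN cells were vector control cells sorted for PDPN that had appeared spontaneously. The red fluorescent reporter tdTomato served to trace the derivatives. Each derivative was sequenced as 4 technical replicates per batch. X2, CCR7 and CCR7-PDPN were in batch 1, and X2, X2-PDPN and CCR7-PDPN were in batch 2, which gave 24 libraries in 6 groups. Each derivative was thus 1 cell population, so the p-values measured technical spread and not the spread between independently derived populations.

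OAS enzymes are sensors of double-stranded RNA. On binding it they join ATP into short 2′-5′-linked chains, known as 2-5A, which act as a second messenger of the antiviral response and lead to the breakdown of viral and cellular RNA. Most OAS genes are interferon-stimulated genes, and a basal level is kept in many cells by tonic interferon signalling.

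Each library held 22275468 to 33395418 counts in batch 1 and 22788542 to 35721027 in batch 2. Ccr7 averaged 0.653 ± 0.291 TPM (a level scaled by gene length and library total; SD, n = 4) in X2 and 5311 ± 140 TPM in CCR7 cells, and Pdpn averaged 0.853 ± 0.299 TPM in CCR7 and 51.9 ± 3.39 TPM in CCR7-PDPN cells of batch 1. In batch 2, Pdpn averaged 0.330 ± 0.161 TPM in X2 and 52.9 ± 0.261 TPM in X2-PDPN cells. Both genes followed the labels. Of the epithelial markers, Krt8 was present, while Krt18, Epcam and Cdh1 were below 1 TPM in every batch 1 group, and Vim and Twist1 were high. Of 7 leukocyte markers none reached 1 TPM in a batch 1 group, with Cd3e at 0 and Ptprc at most 0.0159 TPM. The list summed to 0.506 to 0.739 TPM in X2 and 0.0676 to 0.341 TPM in CCR7-PDPN libraries of batch 1. In batch 2 only Itgax of this list was listed, with a group mean of at most 0.432 TPM. Of 6 endothelial markers, 3 of which were listed in batch 2, none reached 1 TPM in any group. Of 5 fibroblast markers, Pdgfra and Pdgfrb were expressed in every group. Dcn, Lum and Fap were at or near 0 in batch 1 and not listed in batch 2.

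The genes lay in 2 groups on chromosome 5 (build GRCm38, as in the batch 1 table). From Oas2 (chr5:120730333-120749853) through Oas3 (chr5:120753098-120777661), Oas1c (chr5:120800194-120812514), Oas1b (chr5:120812635-120824163) and Oas1g (chr5:120876142-120887613) to Oas1a (chr5:120896256-120907521), the members shared a cluster that spanned 191320 bp to the far end of Oas1d. All of these were on the minus strand except Oas1b. Oas1b, the flavivirus resistance gene of wild mice that is truncated in many laboratory strains, was annotated as a polymorphic pseudogene. Its start and that of Oas1c faced away from each other across 120 bp. Oasl2 (chr5:114896936-114912234) and Oasl1 (chr5:114923240-114937915) lay on the plus strand of another part of the chromosome, 11005 bp apart.

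The upstream sequence of the cluster genes is shown for the letters that neighbouring members shared. The RefSeq promoter table (GRCm38.p6) held windows of 300 bases, from 250 before to 50 after the start, for Oas1a, Oas1c, Oas1g, Oas3, Oasl1 and Oasl2. No window was found for Oas1b or Oas2, so neither gene could be among the windows counted. GAAANNGAAA, the core of the interferon-stimulated response element, was searched on both strands. It was in 1131 of all 32851 windows (3.44%), and 74 windows (0.225%) held 2 or more copies, overlapping ones included. Oas1a, Oas1g and Oas1c each held 2 overlapping copies, Oas3 held 1, and Oasl1 and Oasl2 held none. Printed are the bases before the start of Oas1a (chr5:120907526-120907675, minus strand), Oas1g (chr5:120887614-120887763, minus strand) and Oas3 (chr5:120777660-120777809, minus strand), and the 120 bases between Oas1c and Oas1b read towards Oas1b (chr5:120812515-120812634, plus strand), with the copies in capitals.
Oas1a: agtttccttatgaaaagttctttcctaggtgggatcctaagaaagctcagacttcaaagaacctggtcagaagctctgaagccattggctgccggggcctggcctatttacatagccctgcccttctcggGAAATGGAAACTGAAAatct
Oas1g: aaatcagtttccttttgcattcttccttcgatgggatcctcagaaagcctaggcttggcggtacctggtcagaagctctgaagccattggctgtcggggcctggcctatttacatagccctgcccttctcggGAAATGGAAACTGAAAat
Oas1b: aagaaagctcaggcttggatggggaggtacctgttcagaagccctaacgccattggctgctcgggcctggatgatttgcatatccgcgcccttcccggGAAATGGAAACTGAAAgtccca
Oas3: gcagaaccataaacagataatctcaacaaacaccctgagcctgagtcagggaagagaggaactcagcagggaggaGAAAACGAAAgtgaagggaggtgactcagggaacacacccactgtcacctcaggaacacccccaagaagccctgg
The capitals in the first 3 sequences were the same 16 letters, GAAATGGAAACTGAAA. They ended 5 bases before the start of Oas1a, 3 before that of Oas1g and 7 before that of Oas1b, and the same letters were what the Oas1c window held on its other strand. Of all 32851 windows, 7 (0.0213%) held this run on either strand, and they belonged to Oas1a, Oas1c, Oas1g, Apol9a and Apol9b. In Oas3 the copy lay 75 to 66 bases before the start. The printed stretches of Oas1a and Oas1g were 83.2% identical over their alignment. A match describes these letters only.

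In X2 cells the 8 genes summed to 159 ± 9.46 TPM in batch 1 and 162 ± 14.8 TPM in batch 2. The sum was 89.7 ± 5.88 TPM in CCR7, 25.7 ± 2.79 TPM in CCR7-PDPN of batch 1, 23.3 ± 0.913 TPM in X2-PDPN and 26.6 ± 3.78 TPM in CCR7-PDPN of batch 2 (SD, n = 4 each). CCR7 cells thus held 56.3% of the sum of X2, X2-PDPN cells 14.4%, and CCR7-PDPN cells 16.1% and 16.5%. A lower level per cell and fewer cells with the RNA cannot be told apart in bulk samples.

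**Figure D1:**
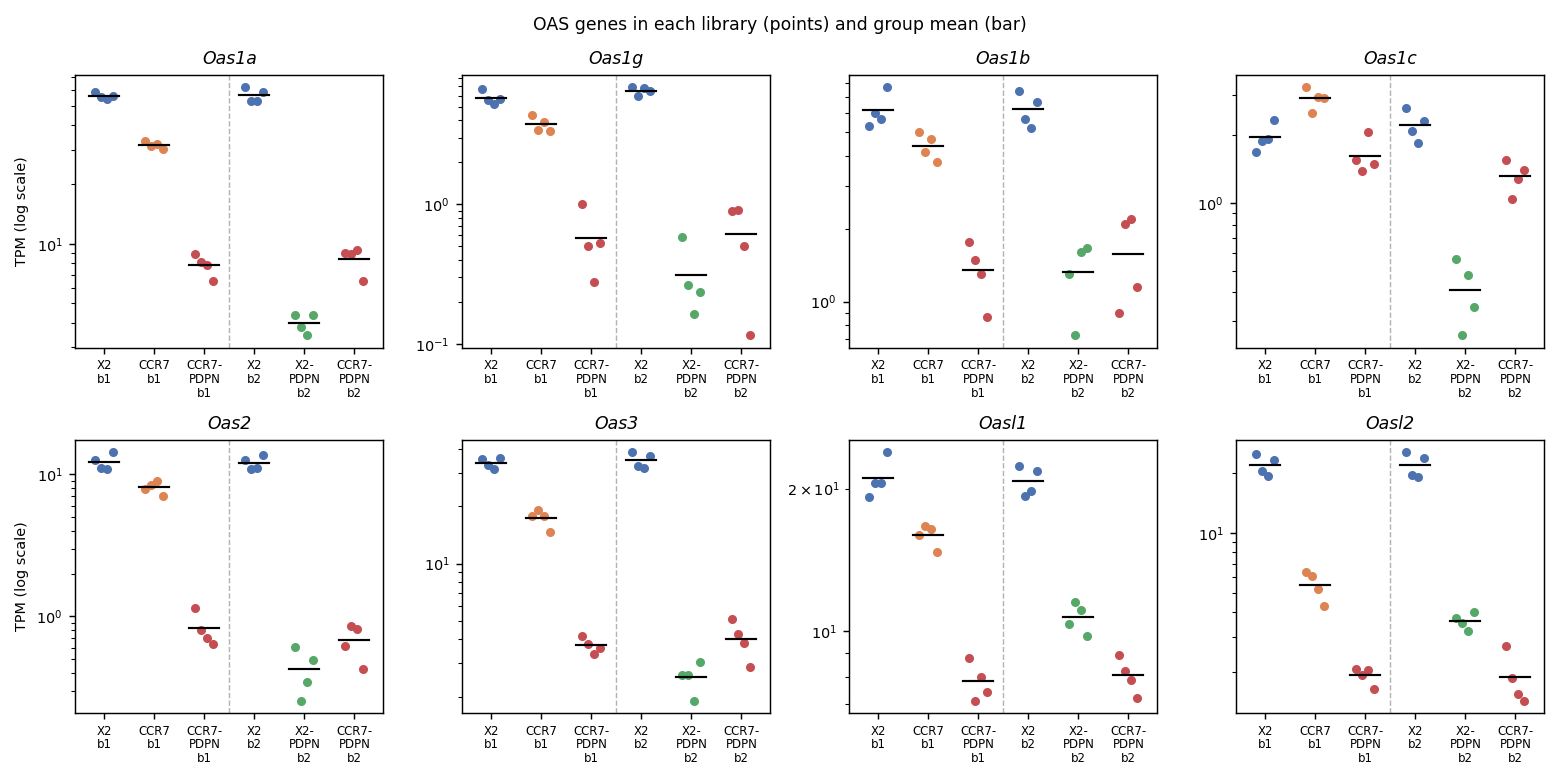
TPM of each OAS gene in each of the 24 libraries (points; log axis that differs between panels) by group, with b1 and b2 for the batches and bars for the mean of 4 libraries. The 6 cluster genes were lowest on average in X2-PDPN, by little for Oas1b, whereas Oasl1 and Oasl2 were lowest in CCR7-PDPN cells.

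Oas1a, an active short synthetase, had the highest TPM of the family in X2 cells. In batch 1 its 4 libraries stood at 59.0, 55.6, 53.9 and 56.0 TPM in X2, 33.2, 31.4, 32.2 and 30.3 TPM in CCR7 and 8.93, 8.10, 7.80 and 6.48 TPM in CCR7-PDPN cells. In batch 2 they stood at 62.3, 53.0, 53.1 and 58.6 TPM in X2, 4.38, 3.79, 3.45 and 4.39 TPM in X2-PDPN and 8.96, 8.94, 9.29 and 6.5 TPM in CCR7-PDPN cells. No 2 groups of a batch overlapped, and every X2-PDPN library was below every CCR7-PDPN library. Against X2, the fitted level was 1.76-fold lower in CCR7, 14.2-fold lower in X2-PDPN, and 7.04-fold and 6.62-fold lower in CCR7-PDPN cells of batches 1 and 2.

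Oas1g, the other active short synthetase and the closest relative of Oas1a, ranged over 5.27 to 6.67 TPM in X2 cells, 3.35 to 4.39 TPM in CCR7 cells and 0.278 to 0.999 TPM in CCR7-PDPN cells of batch 1. In batch 2 it ranged over 5.94 to 6.94 TPM in X2, 0.163 to 0.580 TPM in X2-PDPN and 0.115 to 0.913 TPM in CCR7-PDPN cells. The PDPN-positive groups overlapped each other and lay far below X2. Of the 75-base words of its transcripts, 36.9% also occurred in Oas1a, and 47.6% of those of Oas1a occurred in Oas1g, so the split of reads between the pair was uncertain. Its count was as low as 2 in a CCR7-PDPN library, and its folds rest on few reads in PDPN-positive cells.

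Oas2, a synthetase with tandem catalytic units, stood at 12.7, 11.0, 10.9 and 14.3 TPM in X2, 7.88, 8.50, 8.93 and 7.08 TPM in CCR7 and 1.16, 0.798, 0.702 and 0.637 TPM in CCR7-PDPN libraries of batch 1. In batch 2 it stood at 12.6, 11.0, 11.2 and 13.7 TPM in X2, 0.610, 0.256, 0.344 and 0.496 TPM in X2-PDPN and 0.621, 0.853, 0.819 and 0.424 TPM in CCR7-PDPN libraries. The mean in X2-PDPN cells was 3.52% of that in X2. The log2 fold change of -4.85 ± 0.15 (SE) was the lowest of all 13314 genes tested in that comparison. It rests on few reads, with 11 to 22 counts of Oas2 per X2-PDPN library. Oas3, the longest synthetase and in human cells a main source of 2-5A, stood at 35.6, 32.8, 31.3 and 35.8 TPM in X2, 17.7, 19.2, 17.9 and 14.7 TPM in CCR7 and 4.17, 3.79, 3.35 and 3.61 TPM in CCR7-PDPN libraries of batch 1. In batch 2 Oas3 stood at 38.5, 32.7, 31.9 and 36.6 TPM in X2, 2.62, 2.60, 1.91 and 3.06 TPM in X2-PDPN and 5.15, 4.30, 3.82 and 2.86 TPM in CCR7-PDPN libraries. CCR7 cells kept 51.2% of the X2 mean of Oas3 and 66.2% of that of Oas2, and neither gene overlapped between X2 and any other group.

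Oas1b and Oas1c, the pair with facing-away starts, did not keep step. Oas1b averaged 6.16 ± 1.05 TPM in X2, 4.39 ± 0.548 TPM in CCR7 and 1.35 ± 0.375 TPM in CCR7-PDPN cells of batch 1, and 6.22 ± 0.994, 1.32 ± 0.427 and 1.58 ± 0.651 TPM in X2, X2-PDPN and CCR7-PDPN cells of batch 2 (SD, n = 4). Oas1c stood at 1.68, 1.88, 1.92 and 2.33 TPM in X2, 3.26, 2.5, 2.95 and 2.90 TPM in CCR7 and 1.56, 1.38, 2.06 and 1.49 TPM in CCR7-PDPN libraries of batch 1. In batch 2 Oas1c stood at 2.63, 2.09, 1.84 and 2.30 TPM in X2, 0.564, 0.258, 0.477 and 0.344 TPM in X2-PDPN and 1.55, 1.04, 1.27 and 1.40 TPM in CCR7-PDPN libraries. The mean of Oas1c was thus higher in CCR7 than in X2 cells, the reverse of the other 7 genes, while its X2-PDPN libraries were below all others. The count of Oas1c per count of Oas1b of batch 1 ran from 0.367 to 0.411 in X2 libraries, from 0.730 to 0.932 in CCR7 libraries and from 1.07 to 2.07 in CCR7-PDPN libraries. In batch 2 this ratio was 0.417 to 0.447 in X2, 0.250 to 0.524 in X2-PDPN and 0.60 to 2.09 in CCR7-PDPN libraries. Both genes were low, with 6 to 68 counts of Oas1c and 11 to 120 of Oas1b per library. An exon of Oas1c overlapped Gm43069 on the other strand and one of Oasl1 overlapped Gm13822. The library kit kept strand, but the strand setting of the counting was not given in the sources used here, so reads of these pairs cannot be told apart.

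The 2 OAS-like genes differed from the cluster. Oasl1, which lacks synthetase activity and is known in mice to restrain translation of Irf7, stood at 19.2, 20.6, 20.6 and 23.9 TPM in X2, 15.9, 16.7, 16.4 and 14.7 TPM in CCR7 and 8.78, 7.13, 7.98 and 7.42 TPM in CCR7-PDPN libraries of batch 1. In batch 2 Oasl1 stood at 22.3, 19.3, 19.7 and 21.8 TPM in X2, 10.4, 11.5, 11.1 and 9.78 TPM in X2-PDPN and 8.91, 8.24, 7.89 and 7.23 TPM in CCR7-PDPN libraries. Of the 8 genes it kept the largest part of its X2 mean in X2-PDPN cells (51.4%) and the largest after Oas1c in CCR7-PDPN cells (37.2% and 38.8%). Oasl2, which has ubiquitin-like domains and retains synthetase activity, stood at 25.1, 20.5, 19.3 and 23.4 TPM in X2, 6.36, 6.06, 5.25 and 4.27 TPM in CCR7 and 2.07, 1.93, 2.04 and 1.64 TPM in CCR7-PDPN libraries of batch 1. In batch 2 Oasl2 stood at 25.5, 19.5, 19.1 and 23.8 TPM in X2, 3.75, 3.54, 3.20 and 4.02 TPM in X2-PDPN and 2.70, 1.86, 1.55 and 1.44 TPM in CCR7-PDPN libraries. Its CCR7 libraries lay below every X2 library, at 24.8% of the X2 mean, the lowest such share of the 8 genes in CCR7 cells.

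The make-up of the summed OAS level also changed. Oas1a gave 35.3% of the summed TPM in X2 of batch 1, 35.5% in CCR7 and 30.4% in CCR7-PDPN cells, and in batch 2 35.2% in X2 cells, 17.1% in X2-PDPN cells and 31.7% in CCR7-PDPN cells. Oasl1 went the other way, from 13.2% and 12.9% in X2 to 17.8% in CCR7, 30.6% and 30.6% in CCR7-PDPN and 45.9% in X2-PDPN cells. Oasl1 was thus the largest single part of the sum in X2-PDPN cells. In CCR7-PDPN cells it was about level with Oas1a, at 30.6% against 30.4% in batch 1 and 30.6% against 31.7% in batch 2.

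**Figure D2:**
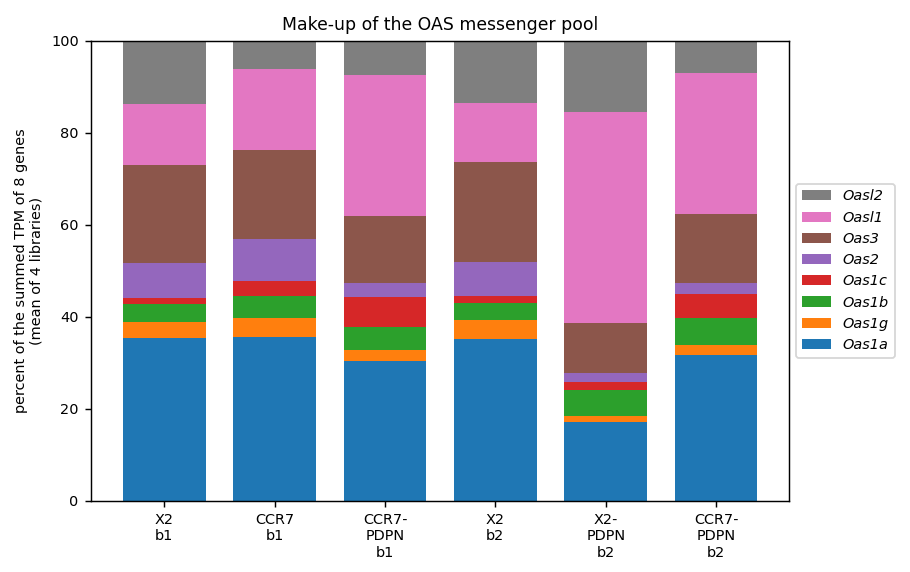
Percent of the summed TPM of the 8 OAS genes contributed by each gene, as the mean of 4 libraries in each group (stacked bars from 0 to 100%; b1 and b2 are the batches). Oasl1 made up 45.9% in X2-PDPN cells against 12.9% in X2 cells of the same batch.

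The tests asked how each derivative differed from X2 or from its counterpart of the same batch. The quasi-likelihood test of edgeR was used, and p was adjusted by Benjamini-Hochberg over every gene tested. Genes were called where the adjusted p was below 0.05 and the level had moved by more than 1 on the log2 scale. Comparisons with X2 in a batch shared the same 4 X2 libraries. In CCR7 against X2 cells, 1 of the 8 genes was called lower, where 3.18% of all 13261 genes were. That gene was Oasl2, with a log2 fold change of -2.0 ± 0.11 (SE, adjusted p = 1.1e-09). By the adjusted p alone 7 of 8 were lower (25.2% of all genes) and 1 of 8, Oas1c, was higher (24% of all genes). Oas1b was no longer among the 7 without X2 replicate 4 (-0.35, adjusted p = 0.075). The log2 fold change of Oas1c was 0.57 ± 0.17 (adjusted p = 0.0076). Oas3 at -0.96 was just inside the fold threshold, and the others ranged from -0.82 in Oas1a to -0.40 in Oasl1. The median log2 fold change was -0.60 over the 8 genes and 0.0033 over all genes tested.

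In CCR7-PDPN against CCR7 cells, 7 of 8 genes were called lower, against 2.6% of all genes. Oas2 had the largest difference, -3.27 ± 0.15 on the log2 scale (adjusted p = 6.5e-12), followed by Oas1g at -2.66, Oas3 at -2.20 and Oas1a at -2.0. Oasl1, at -1.0 ± 0.08 (adjusted p = 7.7e-09), sat at the fold threshold, and leaving out any of 4 single libraries (CCR7 replicate 2 or 3, CCR7-PDPN replicate 2 or 4) took it below, to between -0.96 and -0.99, as did testing without a filter on low counts. Oas1c was lower by 1.77-fold (-0.83 ± 0.17, adjusted p = 0.00061), inside the fold threshold. The median was -1.84 over the 8 genes and -0.0033 over all genes.

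In X2-PDPN against X2 cells, 7 of 8 genes were called lower, against 1.55% of all 13314 genes. The 6 cluster genes and Oasl2 were those called. After Oas2, the largest differences were in Oas1g (-4.36 ± 0.26), Oas1a (-3.83 ± 0.09) and Oas3 (-3.78 ± 0.15), with adjusted p of 2.1e-17, 4.2e-31 and 5.4e-09 by the same edgeR test. Oas1c fell 5.4-fold and Oas1b 4.82-fold. Oasl1 stayed inside the fold threshold at -0.96 ± 0.07 (adjusted p = 3.7e-15), and passed it at -1.01 without X2-PDPN replicate 2.

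CCR7-PDPN against X2 was the one comparison made in both batches. In batch 1 7 of 8 genes were called lower (5.36% of all genes) and in batch 2 7 of 8 (5.67%). Oas1c was the exception in each, with a log2 fold change of -0.25 ± 0.18 (adjusted p = 0.24, 95% interval -0.61 to 0.11) in batch 1 and -0.74 ± 0.21 (adjusted p = 0.0023) in batch 2. The steepest change of the 8 was in Oas2, at -3.86 ± 0.15 and -4.11 ± 0.14. A test of the difference between the batches called 0 of 8 genes and 0% of all 13690 genes. At an unadjusted p under 0.05 it gave 0 of 8 in edgeR and 0 of 8 in DESeq2, and the 8 differences ranged from -0.25 to 0.49 on the log2 scale. The batches were not fully independent, since libraries of the same derivative and number deviated together across them. With these pairs as a block, edgeR again called 0 of 8 genes, and 4.4% of all genes had an unadjusted p under 0.05, against 2.14% without it.

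**Figure D3:**
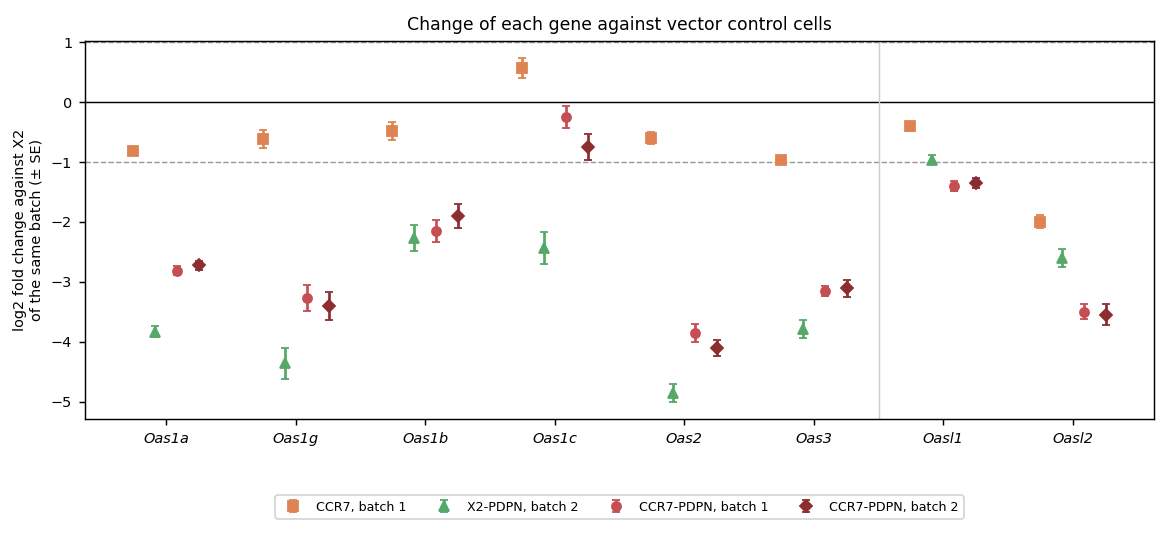
Log2 fold change against X2 cells of the same batch (points, bars are SE) for each OAS gene in CCR7, X2-PDPN and CCR7-PDPN cells, with dashed lines at the fold threshold. X2-PDPN lies lowest for the 6 cluster genes on the left, within the SE for Oas1b, and CCR7-PDPN lies lowest for Oasl1 and Oasl2 on the right.

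CCR7-PDPN and X2-PDPN cells, both PDPN-positive, differed in the family. Called higher in CCR7-PDPN were 2 of 8 genes (2.76% of all genes), Oas1a at 1.11 ± 0.13 (adjusted p = 7.3e-10) and Oas1c at 1.69 ± 0.30 (adjusted p = 3.6e-06). None of the 8 was called lower (6.4% of all genes). By the adjusted p alone 5 of 8 were higher (31.2% of all genes) and 2 of 8 lower (32%). The 5 were Oas1a, Oas1c, Oas1g, Oas2 and Oas3, and the 2 were Oasl1 at -0.39 ± 0.09 (adjusted p = 0.00012) and Oasl2 at -0.95 ± 0.23 (adjusted p = 0.005). For Oas1b the difference was 0.37 ± 0.27 (adjusted p = 0.24), with a 95% interval of -0.17 to 0.90. Of the 5, Oas1g and Oas2 depended on single libraries. Oas1g, at 0.96 ± 0.43 (adjusted p = 0.049), did not pass without CCR7-PDPN replicate 1 or 2 or X2-PDPN replicate 2, 3 or 4, and its value was as low as 0.65 (adjusted p = 0.24) without CCR7-PDPN replicate 2. Oas2, at 0.75 ± 0.27 (adjusted p = 0.017), did not pass without CCR7-PDPN replicate 2 or 3 or X2-PDPN replicate 2 or 3, and its value was as low as 0.54 (adjusted p = 0.094) without X2-PDPN replicate 2. Other libraries moved values past the fold threshold. Oas1g (0.96) passed it at 1.05 without CCR7-PDPN replicate 3, at 1.29 without CCR7-PDPN replicate 4 and at 1.42 without X2-PDPN replicate 1, and Oasl2 (-0.95) at -1.13 without CCR7-PDPN replicate 1 and at -1.01 without X2-PDPN replicate 3.

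Whether the PDPN difference depended on CCR7 was tested as the difference CCR7-PDPN minus CCR7 of batch 1 less the difference X2-PDPN minus X2 of batch 2, fitted over all 24 libraries. The fall was smaller with CCR7 for 6 of 8 genes (20.3% of all genes were called in this direction, with no fold threshold). These were Oas1a at 1.84 ± 0.14, Oas1g at 1.71 ± 0.46, Oas1c at 1.61 ± 0.31, Oas2 at 1.59 ± 0.31, Oas3 at 1.59 ± 0.20 and Oasl2 at 1.11 ± 0.25, in log2 units. For Oas1b the value was 0.60 ± 0.33 (adjusted p = 0.15, 95% interval -0.05 to 1.24) and for Oasl1 -0.04 ± 0.11 (adjusted p = 0.82, 95% interval -0.26 to 0.18). The differences came from different batches, so the CCR7 background and the batch cannot be told apart in this contrast. The CCR7-PDPN against X2 differences, which had the same groups in each batch, differed by at most 0.49 for the 8 genes. They held neither CCR7 nor X2-PDPN cells, so they cannot separate the CCR7 background from the batch.

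**Figure D4:**
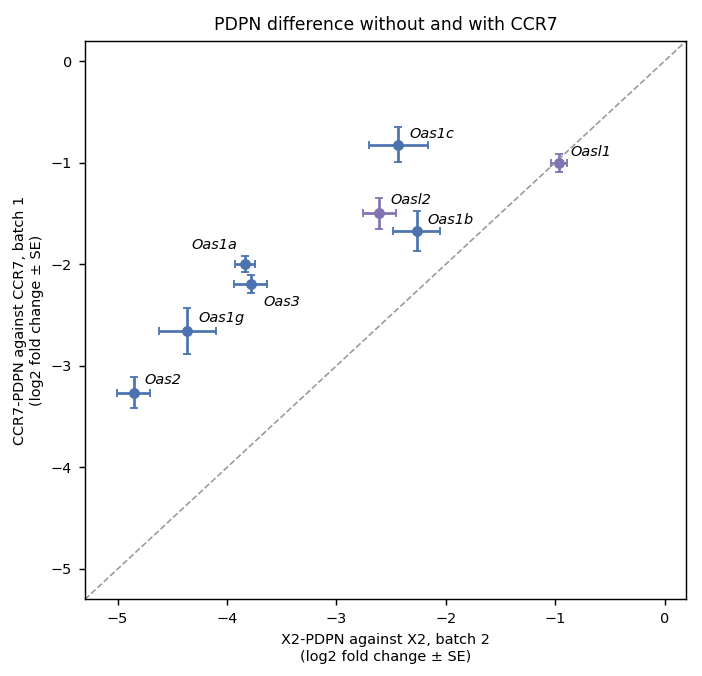
Log2 fold change of X2-PDPN against X2 in batch 2 (x axis) and of CCR7-PDPN against CCR7 in batch 1 (y axis) for each OAS gene, with bars for the SE and a dashed line where both are equal. Oasl1 sits on the line, and the cluster genes and Oasl2 sit above it, where the fall is smaller with CCR7 (for Oas1b the difference did not pass the test).

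The single-marker derivatives were compared through the X2 cells of their own batch. The change from X2 was less negative in CCR7 than in X2-PDPN cells for 8 of 8 genes (23.5% of all genes), by 4.27 ± 0.22 log2 units for Oas2, 3.76 ± 0.34 for Oas1g and 3.02 ± 0.12 for Oas1a, down to 0.61 ± 0.20 for Oasl2 (adjusted p = 0.017) and 0.57 ± 0.11 for Oasl1 (adjusted p = 2.8e-05). Oasl2 passed by little, and without CCR7 replicate 1 its value was 0.53 and not called. Relative to X2, the 8 OAS genes thus stood lower in X2-PDPN than in CCR7 cells. Oas1c had moved up in CCR7 cells (log2 fold change 0.57) and down in X2-PDPN cells (-2.43). CCR7 and X2-PDPN cells were never sequenced in the same batch.

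The order of the group means in TPM differed between genes accordingly. For Oas1a, Oas1g, Oas2 and Oas3 it ran from X2 through CCR7 and CCR7-PDPN to X2-PDPN, and the neighbours CCR7-PDPN and X2-PDPN overlapped in single libraries for all of these except Oas1a. For Oas1b CCR7-PDPN and X2-PDPN did not differ beyond their spread. For Oas1c CCR7 was highest, and X2 and CCR7-PDPN of batch 1 overlapped. For both Oasl1 and Oasl2 the order was X2, CCR7, X2-PDPN and CCR7-PDPN. Levels of CCR7 and X2-PDPN were set side by side across batches and not tested as levels.

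Other genes of the pathway were taken from 3 lists. Abce1, a ribosome recycling factor placed in the pathway, and Pde12 and Akap7, which degrade 2-5A, made up the first list, and 0 of 3 were called in any of the 6 comparisons within a batch. Their log2 fold changes in X2-PDPN against X2 were -0.38, -0.13 and -0.23, and in CCR7 against X2 -0.17, -0.48 and 0.24. By the adjusted p alone, all 3 were lower in X2-PDPN cells, while in CCR7 cells Akap7 was higher and the others lower. Such calls were common, with 28.5% of all genes lower in X2-PDPN cells and 25.2% lower and 24% higher in CCR7 cells. Over the 6 comparisons their log2 fold changes stayed between -0.61 and 0.58.

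Of the other genes that sense or edit double-stranded RNA, 12 of 13 passed the filter within batches. Called lower were 3 of 12 in CCR7 against X2, 1 of 12 in CCR7-PDPN against CCR7, 4 of 12 in X2-PDPN against X2, 2 of 12 in CCR7-PDPN against X2-PDPN and 4 of 12 in CCR7-PDPN against X2 of each batch, and 0 were called higher. Of all genes, 3.18%, 2.6%, 1.55%, 6.4%, 5.36% and 5.67% were called lower in these comparisons, in the same order with batch 1 before batch 2. The RNA helicases Ifih1 (MDA5), Ddx58 (RIG-I) and Dhx58 (LGP2) were among them, with log2 fold changes in X2-PDPN against X2 of -1.84, -1.54 and -1.61. Ifih1 fell in all 6 comparisons, as far as -3.07 in CCR7-PDPN against X2 of batch 1. Zbp1, a nucleic acid sensor of cell death, had -2.09 for CCR7 and -1.05 for X2-PDPN cells, each against X2, so its point value was lower in CCR7 cells, but the test of that difference gave -1.03 ± 0.57 (adjusted p = 0.14). Eif2ak2 (PKR), the kinase that also answers to double-stranded RNA, was called in none of the 6 comparisons and had -0.43 in X2-PDPN against X2, and the adaptor Mavs had 0.36. The median over the list was -0.27 in X2-PDPN against X2, beside -3.20 over the 8 OAS genes and 0.0012 over all genes.

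Of the genes that carry interferon signals to the OAS genes, 18 of 19 passed the filter. Called lower were 3 of 18 in CCR7 against X2, 2 of 18 in CCR7-PDPN against CCR7, 3 of 18 in X2-PDPN against X2, 0 of 18 in CCR7-PDPN against X2-PDPN, and 3 of 18 in CCR7-PDPN against X2 of each batch, beside the same shares of all genes as for the previous list. None was called higher. Irf7, the interferon-induced master factor of interferon genes, had log2 fold changes of -1.23 in CCR7, -2.72 in X2-PDPN and -2.65 in CCR7-PDPN against X2 of batch 1. Usp18, a feedback inhibitor at the interferon receptor, had -1.66, -3.16 and -3.95 in the same comparisons, and Irf9 had -1.14, -1.42 and -1.78. The 4 receptor chains stayed inside the fold threshold. In X2-PDPN against X2 none of them passed the adjusted p, with Ifnar1 at -0.03, Ifnar2 at -0.02, Ifngr1 at 0.03 and Ifngr2 at 0.01. In CCR7-PDPN against X2, Ifnar1 (0.36 and 0.29 in batches 1 and 2) and Ifngr2 (0.48 and 0.54) were higher and Ifngr1 (-0.33 and -0.27) was lower by the adjusted p alone. The 3 genes called in any of the 6 comparisons within a batch were Irf7, Usp18 and Irf9. The list as a whole moved little. Against X2 its median was -0.11 in CCR7, -0.0057 in X2-PDPN, and 0.031 and 0.024 in CCR7-PDPN cells of batches 1 and 2.

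The genes beside the OAS genes were counted in the same way. Within 500 kb of the cluster 16 other genes were tested, and 0 of 16 were called lower in each of the 6 comparisons, with the lowest log2 fold change at -0.96. Within 500 kb of the Oasl1-Oasl2 pair 25 other genes were tested, and 0 of 25 were called lower, with the lowest at -0.74. Between 1.55% and 6.4% of all genes were called lower in these comparisons, so counts of 0 lay near the share of all genes. By the adjusted p alone, 5 of 16 and 4 of 25 neighbours were lower in X2-PDPN against X2, where 28.5% of all genes were. The median of the neighbours was -0.0072 and 0.057 in X2-PDPN against X2 and 0.073 and 0.11 in CCR7-PDPN against CCR7. In and beside the cluster lay 4 further Oas1 genes that were listed in batch 1 only. Oas1d had 0 to 4 counts, Oas1e 0 to 2, and Oas1f and Oas1h had 0 in all 12 libraries, so no change in them was detectable at this depth.

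**Figure D5:**
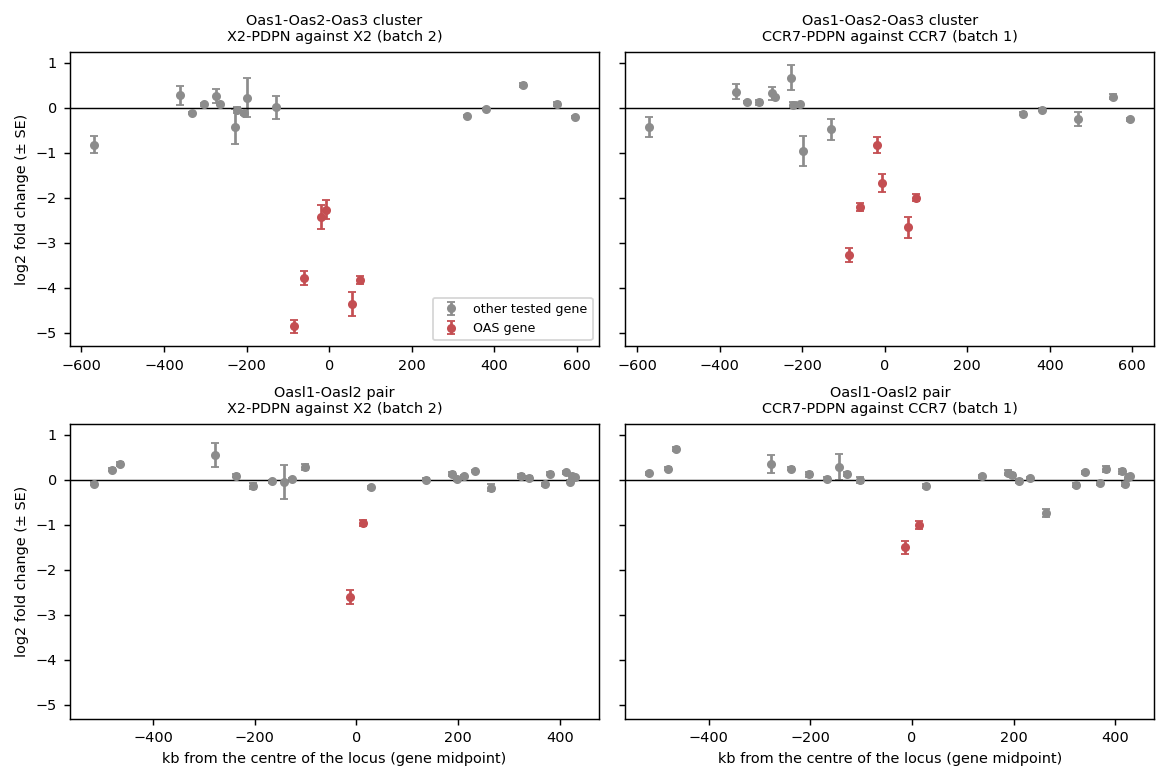
Log2 fold change (points, bars are SE) of the OAS genes and of other tested genes against the distance of the gene midpoint from the centre of the locus in kb, for the cluster (top) and the Oasl1-Oasl2 pair (bottom). In both comparisons the OAS genes lie low at the centre, while the 16 and 25 neighbours lie between -0.96 and 0.69.

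The genes most like the OAS family over the 24 libraries were found from log2 CPM relative to the X2 mean of the same batch, among 10527 genes. Correlated with the mean of the 8 members, they were Lgals9 (Pearson r = 0.992), which encodes galectin-9, Apol9a (0.989), Ddx58 (0.989), the MHC class I gene H2-D1 (0.986) and Aif1l (0.984). The libraries shared their X2 reference and fell into few groups, so the values describe a pattern over the groups. The size of the change differed, from -0.68 in H2-D1 to -2.0 in Apol9a for the mean of X2-PDPN relative to X2.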

How the data were processed

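RNA of sorted EO771 derivatives had been sequenced as stranded mRNA libraries with single-end reads of 75 bp. The authors deposited raw counts of reads per gene on GRCm38 (mm10, per the submitters' processing notes), as 1 table of 55471 genes with coordinates and lengths for batch 1 and 1 table of 13915 genes for batch 2. The aligner was not given in the sources used here. The samples were grouped by the labels into 6 groups of 4.

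The members and lists were chosen with earlier results of these data known. Counts were tested per batch with edgeR 4.0.16 (TMM, filterByExpr, robust quasi-likelihood F test) in R 4.3.3, with Benjamini-Hochberg adjustment over all 13261 and 13314 genes tested. Differences of differences were tested over all 24 libraries with 13690 genes. TPM was computed with the gene lengths of the batch 1 table over all genes listed in the batch. All 8 genes were named whatever their values, with genes of each pathway list and the 5 genes most like the family among those averaging 1 log2 CPM or more. A limit of 6 named genes per pathway list was planned, and the interferon signalling list went beyond it. Some genes of the pathway are not reported here. The fit was tested on simulated data. DESeq2 1.42.0, other filters on low counts, no fold threshold, a replicate block and leaving out each library were the alternatives, with a block across batches (edgeR, and limma 3.58.1 with voom) added after seeing the data.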

Additional observations from a re-analysis of the deposited data

Results flagged for a closer look

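In a search for a library far from the other 3 of its group, 1 of 48 groups stood out, where chance gives about 1 in 20. Oas1a in CCR7-PDPN replicate 4 of batch 2 was at 1.77 log2 CPM, against 2.21 to 2.26 in the other replicates, and its gap was 0.909 of the range of the group.

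The PDPN difference depended on CCR7 for 6 genes in the test of the difference itself, with values of 1.84 for Oas1a, 1.71 for Oas1g, 1.61 for Oas1c, 1.59 for Oas2, 1.59 for Oas3 and 1.11 for Oasl2 on the log2 scale. The CCR7 background and the batch cannot be told apart in these values, and their cause was not tested.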

How the results depend on the processing

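Of 1002 single values over 64 results, 987 kept their direction and their side of the threshold, 6 lost the call, 7 gained it and 2 changed sign. The sign changes were the PDPN difference of Oasl1 with CCR7 minus without, which was 0.0020 without CCR7-PDPN replicate 2 of batch 1 and 0.0019 without X2-PDPN replicate 2, and lay between -0.10 and 0.0020 over all single libraries left out. A stricter filter (10 counts in each of 4 libraries and a mean log2 CPM of 1) left 4 members to test in batch 2. It called 3 in X2-PDPN against X2, 1 in CCR7-PDPN against X2-PDPN and 4 in CCR7-PDPN against X2, fewer because fewer were tested. With no fold threshold 8 members were called in CCR7 against X2, 7 lower (25.2% of all genes) and 1 higher (24%). In CCR7-PDPN against X2-PDPN 7 were called, 5 higher (31.2% of all genes) and 2 lower (32%). Leaving out 1 library gave 1 to 2 members called in CCR7 against X2, where Oas3 passed the fold threshold at -1.01 without CCR7 replicate 2. DESeq2 gave the same counts of members called as edgeR. Same-numbered libraries of different groups correlated at -0.12 to 0.050 in batch 1 and -0.041 to 0.11 in batch 2, so the numbers do not pair the libraries within a batch. Across batches, same-numbered libraries of one derivative correlated at 0.052 to 0.24 in X2 and 0.075 to 0.32 in CCR7-PDPN cells over 10650 genes with a mean above 50 counts, against -0.15 to 0.070 for other numbers, and 15 of 16 libraries correlated best with their own number. Their counts still differed by more than sampling noise (chi-square of 3.17 to 6.02 per degree of freedom) and were kept as separate libraries. With such pairs as a replicate block across batches, an alternative chosen after seeing the data, 6, 8 and 0 members were called by limma (correlation 0.24) in the 3 differences of differences and 0 by edgeR in the last of these, the same members as without it. With a replicate block the counts of members called were 1, 7, 7, 7, 2 and 7 in the 6 comparisons within batches and 6, 8 and 0 in the 3 differences of differences. By the adjusted p alone the block also took Oas1g in CCR7-PDPN against X2-PDPN from 0.049 to 0.051. Few reads limit Oas1c, Oas1g and Oas1b. The same holds for Oas2 in PDPN-positive cells, with 11 to 22 counts in X2-PDPN and 14 to 32 in CCR7-PDPN libraries of batch 2.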

Other observations

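Some neighbours of the OAS genes were called higher, and were named after their values were seen. They numbered at most 1 of 16 near the cluster and 2 of 25 near the Oasl1-Oasl2 pair in a comparison. Of all genes, 437 of 13261 were called higher in CCR7 against X2 and 542 of 13261 in CCR7-PDPN against X2 of batch 1. Trpv4, a calcium-permeable channel near the Oasl1-Oasl2 pair, had log2 fold changes of 1.58 ± 0.26 (SE) in CCR7 against X2 and of 1.93 ± 0.25 and 1.57 ± 0.23 in CCR7-PDPN against X2 of batches 1 and 2. The same gene had 1.01 ± 0.21 in CCR7-PDPN against X2-PDPN. Near the same pair, 4930515G01Rik had 1.01 ± 0.36 in CCR7 against X2 and 1.30 ± 0.34 in CCR7-PDPN against X2 of batch 1. It was not called in batch 2. Sdsl, near the cluster, had 1.02 ± 0.17 in CCR7-PDPN against X2 of batch 1. In batch 2 its value was 0.55 ± 0.20, inside the fold threshold and not called. Irf8, of the interferon signalling genes and also named after its values were seen, had positive values in each comparison with X2, of 0.38 in CCR7, 0.66 in X2-PDPN and 0.81 and 0.87 in CCR7-PDPN cells, inside the fold threshold.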
